A study of Pinus tabuliformis with 21 samples.

Results

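The comparison described here sets foliage of the Chinese pine Pinus tabuliformis after 1 d of UV-C against unirradiated foliage, across all expressed gene models. Its members were chosen by label alone: the 3 libraries of UV-C at 1 d and the 3 control libraries sampled at 0 h, 6 of the 21 libraries in the series. The seedlings were 2.5 years old and grew in pots in a greenhouse at 25 °C under fluorescent lamps with 12 h of light. For the irradiated group, UV-C of 28 µW/cm2 in the range of 230 to 270 nm, strongest at 254 nm, was added to these lamps, and control seedlings received neither UV band. Beside them stand UV-C at 3 and 7 d and UV-B of 280 µW/cm2 in the range of 280 to 320 nm, strongest at 306 nm, at 1, 3 and 7 d, with 3 libraries each. No library is of unirradiated foliage at 1 d, so the effect of UV-C and that of the day elapsed cannot be told apart. The labels do not say whether the 3 libraries of a group came from separate seedlings, so p-values measure the spread between these libraries, which may be technical.

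UV-C does not reach plants in sunlight, because the atmosphere absorbs it. Nucleic acids absorb it strongly, and neighbouring pyrimidines in DNA become linked, which blocks transcription and replication until photolyases or excision repair remove the damage. UV-B, by contrast, is perceived by plants through the receptor UVR8, which acts on flavonoid synthesis and other protective pathways, and it too damages DNA. The deposited table pairs no gene model with a name, so neither these pathways nor markers of foliage were examined, and gene models are described by how they behaved. In whole foliage, fewer cells of a type and less RNA per cell cannot be told apart.

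UV-C libraries of 1 d held 6981912 to 7994941 counts and control libraries 7455114 to 8065146. More gene models had at least 1 count after UV-C: 25084, 25076 and 24448 in the 3 UV-C libraries, against 23971, 23889 and 24044 in the control libraries. Every UV-C library lay above every control library. The 100 most abundant gene models of each library took 23.0% ± 0.58 of its counts after UV-C and 26.1% ± 0.62 in the control (SD, n = 3 each), again without overlap. For both quantities the exact two-sided permutation test gave p = 0.1, the smallest that 3 libraries against 3 allow (Benjamini-Hochberg adjusted p = 0.15 over 3 quantities). Totals did not separate (exact permutation p = 0.9). The UV-C libraries varied more among themselves, with a biological coefficient of variation of 31.2%, against 13.8% in the control, the lowest of the 7 groups. UV-B at 1 d also stood apart from the control in these quantities. It had 25096 ± 476 gene models detected, 21.8% ± 2.1 of counts in the 100 most abundant and a coefficient of 32.6%. UV-C 1 d replicate 3 had the fewest detected gene models of its group and lay nearest to the control, with a mean correlation of log2 levels over genes of 0.953 with the control libraries, against 0.934 and 0.919 for replicates 1 and 2. These are correlations over genes, which are not independent replicates.

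After 1 d of UV-C a small part of the tested gene models was called different from unirradiated foliage. How many differed without being called is not known. Gene models called higher changed by larger folds than those called lower. Of 18265 gene models tested, 676 were higher (3.7% of those tested) and 409 lower (2.24%), together 5.94%. Calls are by edgeR's quasi-likelihood test at a Benjamini-Hochberg adjusted p under 0.05. The middle 50% of the risers had log2 fold changes between 1.11 and 3, and that of the fallers between -1.51 and -0.57. By size, 144 risers changed by less than 2-fold, 228 by 2- to 4-fold, 143 by 4- to 8-fold and 161 by 8-fold or more. Among the fallers the same classes held 238, 108, 28 and 35. Gene models at 0 in a group entered these classes at the bound that 3 counts over that group allow. At an unadjusted p under 0.05 there were 4271 gene models.

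**Figure D1:**
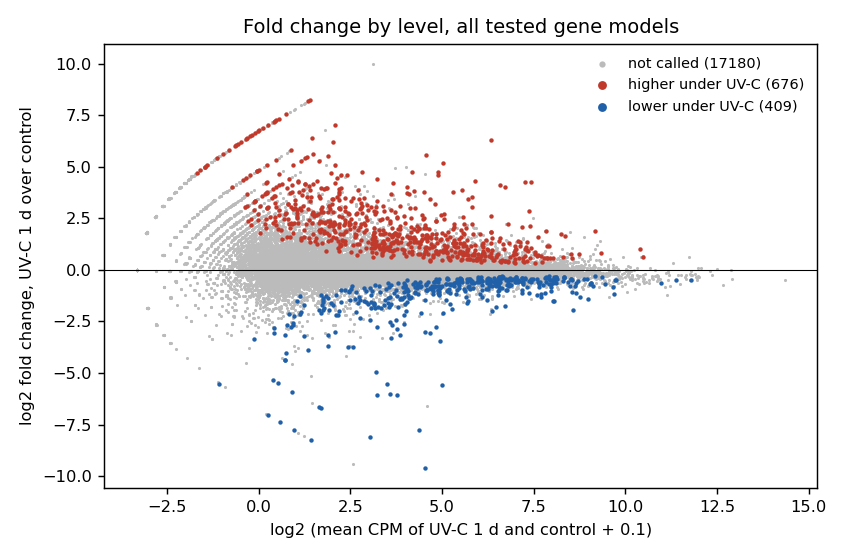
Log2 fold change of UV-C at 1 d over the control (vertical axis) against the log2 of the mean level in CPM (each count relative to the TMM-scaled total of its library, horizontal axis) for each of the 18265 gene models tested, with the 676 risers in red and the 409 fallers in blue. Risers spread to far larger changes at low levels, and the arcs of points at the left are gene models with 0 or a few counts in the control.

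The number of calls depended on each of 5 libraries. Leaving out UV-C 1 d replicate 1 gave 333 calls and leaving out replicate 2 gave 355. Leaving out control replicate 1, 2 or 3 gave 303, 220 or 300. With UV-C 1 d replicate 3 left out the number was 1520, within 1.5 times the full count. Of the risers, 91 were called in each of these 6 smaller fits, and so were 62 of the fallers. No gene model called in the full fit was called in the opposite direction in any of them. The 91 had a median of 32.4 CPM after UV-C, against 6.27 CPM in the control, and a median log2 fold change of 2.11. The 62 had a median of 19.0 CPM after UV-C, against 49.0 CPM in the control, and a median log2 fold change of -1.34. They were picked by repeated tests on the same libraries, a choice made after seeing the data, so their changes are a description.

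Other tests called more gene models. DESeq2 called 1225 higher and 704 lower, and limma with a quality weight per group called 977 higher and 896 lower, so that in the limma fit risers were 52.2% of the calls in place of 62.3%. A fit of these 6 libraries alone called 939 higher and 628 lower. In all 3 of these fits, 448 of the risers and 312 of the fallers were called in the same direction.

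Replicate values separated for many more gene models than were called. All 3 UV-C libraries lay above all 3 control libraries for 2867 gene models (15.7% of those tested) and below them for 2960 (16.2%). Complete separation of 3 libraries from 3 in either direction has an exact permutation p of 0.1. Many gene models would therefore separate with no effect. Among the risers, 643 of 676 were separated in this way, and among the fallers 408 of 409. These members were called on a contrast of the same libraries, which favours separation. Without UV-C 1 d replicate 3, when 2 libraries faced 3, gene models separated in either direction numbered 9279, against 5827 with all 6 libraries. Leaving out another of the 6 libraries gave 7334 to 7801, and separation is easier to reach with 2 libraries. UV-C 1 d replicate 3 was the lowest of its group for 453 of the risers, and replicate 2 was the highest for 366. The median riser stood 1.63 and 1.66 log2 units above the control mean in UV-C replicates 1 and 2 and 1.02 in replicate 3 (log2 of CPM + 0.5). For the fallers these medians were -0.88, -0.90 and -0.76, a narrower range.

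Failing the threshold was not the same as staying level. For 9179 gene models (50.3% of those tested) the 95% interval of the log2 fold change lay between -1 and 1, which limits any change to less than 2-fold. They included 200 that were called and 8979 that were not. For the other 8201 uncalled gene models, 78 of which had no interval, these libraries do not bound the change within 2-fold. At the other end, the whole interval lay above a 2-fold rise for 307 risers and beyond a 2-fold fall for 68 fallers.

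Precision differed by level. Among the 7471 gene models that averaged 1 to 10 CPM over the 21 libraries, the median standard error of the log2 fold change was 0.47 and 25.5% were bounded within 2-fold. Among the 7486 at 10 to 100 CPM, it was 0.19 and 74.1% were bounded. Among the 1976 at 100 to 1000 CPM, it was 0.14 and 83.6% were bounded. Among the 99 at 1000 CPM and over, it was 0.22 and 75.8% were bounded.

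Calls of rises outnumbered calls of falls at low levels, and the numbers of calls drew level at high ones. Over all tested gene models, called or not, the median log2 fold change was 0.37 under 1 CPM and 0.09 at 1 to 10 CPM. It was -0.03 at 10 to 100 CPM, -0.06 at 100 to 1000 CPM and -0.26 at 1000 CPM and over. Between 1 and 10 CPM, 267 gene models rose and 93 fell, and between 10 and 100 CPM 299 rose and 206 fell. Between 100 and 1000 CPM, 82 rose and 95 fell, which is 4.15% and 4.81% of the gene models there. Risers of that class had a median log2 fold change of 1.00, against 2.72 at 1 to 10 CPM, where only a large change passes the test. Of the 99 gene models at 1000 CPM and over, 2 rose and 3 fell.

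**Figure D2:**
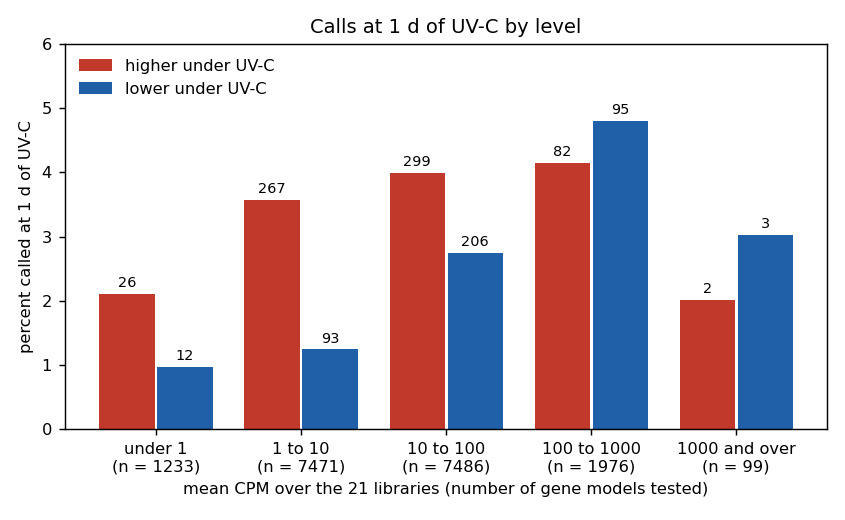
Percent of tested gene models called higher (red) or lower (blue) at 1 d of UV-C than in the control, in classes of mean level over the 21 libraries in CPM, with the number called above each bar. Risers outnumber fallers by 267 to 93 at 1 to 10 CPM, whereas at 100 to 1000 CPM the numbers are 82 and 95.

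The risers took a larger share of the message pool and the fallers a smaller one. The 676 risers held 3.90%, 4.28% and 3.08% of all counts in the UV-C libraries, against 1.61%, 1.59% and 1.59% in the control libraries. The 409 fallers held 3.70%, 3.53% and 3.80% after UV-C, against 5.33%, 5.56% and 5.57% in the control. In both sets the 2 groups are far apart, as the choice of the members fixes. Within each of these 2 sets, gain and loss were spread over many gene models. The largest single gain was 4.68% of the summed CPM gained by the risers, the 10 largest made up 22.0% and the 50 largest 47.9%. Among the fallers the largest loss was 5.37% of the summed CPM lost, the 10 largest 27.7% and the 50 largest 58.7%. Most of the 100 gene models most abundant in the control were in neither set, as 1 was called higher and 4 lower. Together they held 22.5% ± 0.77 of counts after UV-C and 26.0% ± 0.60 in the control (SD, n = 3 each). Their median log2 fold change was -0.33, and choosing them by control level favours a fall.

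**Figure D3:**
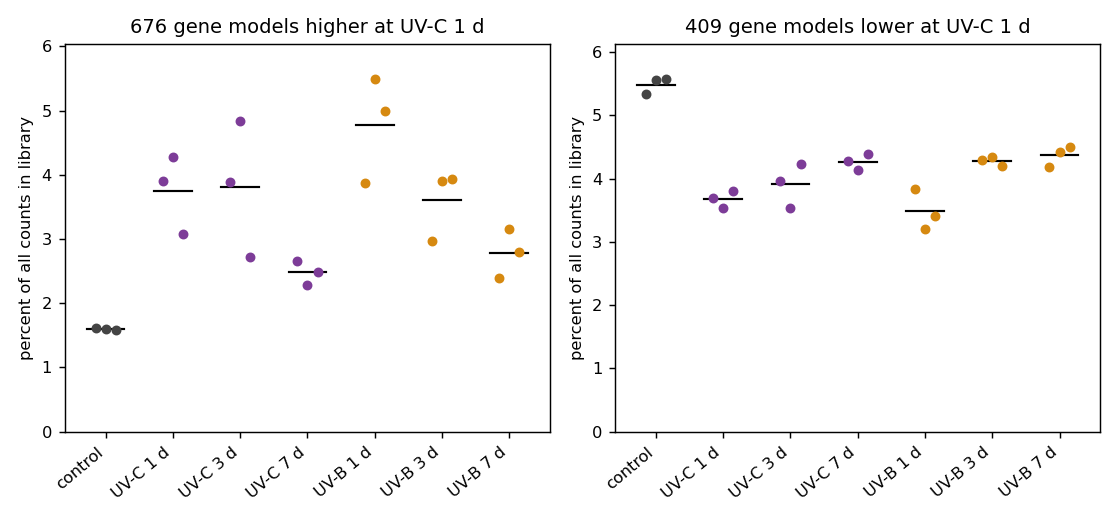
Percent of all counts in each library (points, with the group mean as a line) held by the 676 risers (left) and the 409 fallers (right) of UV-C at 1 d, in all 7 groups. The members were chosen by the contrast of UV-C 1 d with the control, in the fit of all 21 libraries. In all 18 irradiated libraries the risers lie above and the fallers below the control libraries. The other treatments share those control libraries with UV-C as their baseline.

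Transcripts seen on one side alone were few and mostly faint. With 0 counts in all control libraries and at least 1 in each UV-C library there were 282 gene models, of which 75 had enough counts to be tested and 27 were called. With 0 counts in all UV-C libraries and at least 1 in each control library there were 152, of which 13 were tested and 5 called. The median member of these sets had 7 and 6 counts over 3 libraries. The most abundant had 399 counts in the UV-C libraries and 264 in the control libraries. A count of 0 over a group allows up to 3 counts, so faint expression remains possible, and intervals and floors cover counting error only.

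Most of the 161 risers of 8-fold or more were scarce in unirradiated foliage. Their median level was 4.76 CPM after UV-C and 0.266 CPM in the control, and together they held 0.315% ± 0.12 of counts after UV-C and 0.0182% ± 0.0018 in the control (SD, n = 3 each). Their share was 0.720% ± 0.20 at 1 d of UV-B, 0.476% ± 0.32 at 3 d of UV-C and 0.465% ± 0.14 at 3 d of UV-B. At 7 d it was 0.151% ± 0.033 under UV-C and 0.274% ± 0.069 under UV-B. In the control, 125 of them averaged under 1 CPM, and 20 had 0 counts there. The 35 fallers of 8-fold or more averaged between 1.49 and 63.2 CPM in the control, and 15 of them at least 10 CPM. Their median level was 0.251 CPM after UV-C and 6.46 CPM in the control. For 14 of the 35 the 3 UV-C libraries held at most 3 counts in all.

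A pair of risers and a pair of fallers were followed by identifier, among called gene models with a mean of at least 10 CPM in the 6 libraries. In each direction these were the one with the largest fold and the one with the largest difference in CPM. Conifer genomes hold near-identical gene copies, and counting may split reads among them, so each identifier stands under that uncertainty. The steepest riser under these conditions was PITA_000035118-RA. It had 206.6, 180.5 and 88.5 CPM in the UV-C libraries, against 4.12, 1.08 and 0.779 CPM in the control libraries. The lowest UV-C library was replicate 3. That the groups do not overlap was a condition for following these 4 gene models and is no finding. Its log2 fold change was 6.31 ± 0.46 (SE, n = 3 each; edgeR adjusted p = 3.9e-07), a 79.5-fold rise, and by rank of level it moved to 1210 after UV-C, against 13938 in the control. It was called in each smaller fit and by each other test, with log2 fold changes from 5.92 to 7.38, the highest without control replicate 1.

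Among the risers, PITA_000000569-RA gained the most in CPM. It had 1533, 2316 and 1630 CPM in the UV-C libraries, against 896, 967 and 854 CPM in the control libraries. UV-C replicate 2 stood highest. The log2 fold change was 1.01 ± 0.26 (SE; edgeR adjusted p = 0.030), a 2.02-fold rise that made it the 36th gene model by level after UV-C, against the 125th in the control. The call was lost without any 1 of 5 libraries, with adjusted p up to 0.13, and held without UV-C 1 d replicate 3.

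The steepest faller, PITA_000085805-RA, all but vanished under UV-C. It had 1, 0 and 0 counts in the UV-C libraries, against 323, 338 and 369 counts in the control libraries. In CPM this is 0.135, 0 and 0 after UV-C, against 44.4, 45.8 and 47.9 in the control. The ratio of the level after UV-C to that in the control was 0.000927, and its exact 95% counting interval (Clopper-Pearson) ran between 2.34e-05 and 0.00517. The edgeR adjusted p was 2.01e-05. It was called in each smaller fit and by DESeq2, but not by limma with group weights (adjusted p = 0.055).

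Among the called fallers, PITAhm_003142-RA lost the most in CPM, and gene models that were not called are outside this ranking. It had 3073, 2795 and 3036 CPM in the UV-C libraries, against 4135, 4022 and 4145 CPM in the control libraries. It was the 22nd gene model by level after UV-C and the 14th in the control. The log2 fold change was -0.47 ± 0.11 (SE; edgeR adjusted p = 0.023), a 1.38-fold fall. Without any 1 of 5 libraries the adjusted p was between 0.063 and 0.086, and without UV-C 1 d replicate 3 the call held.

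**Figure D4:**
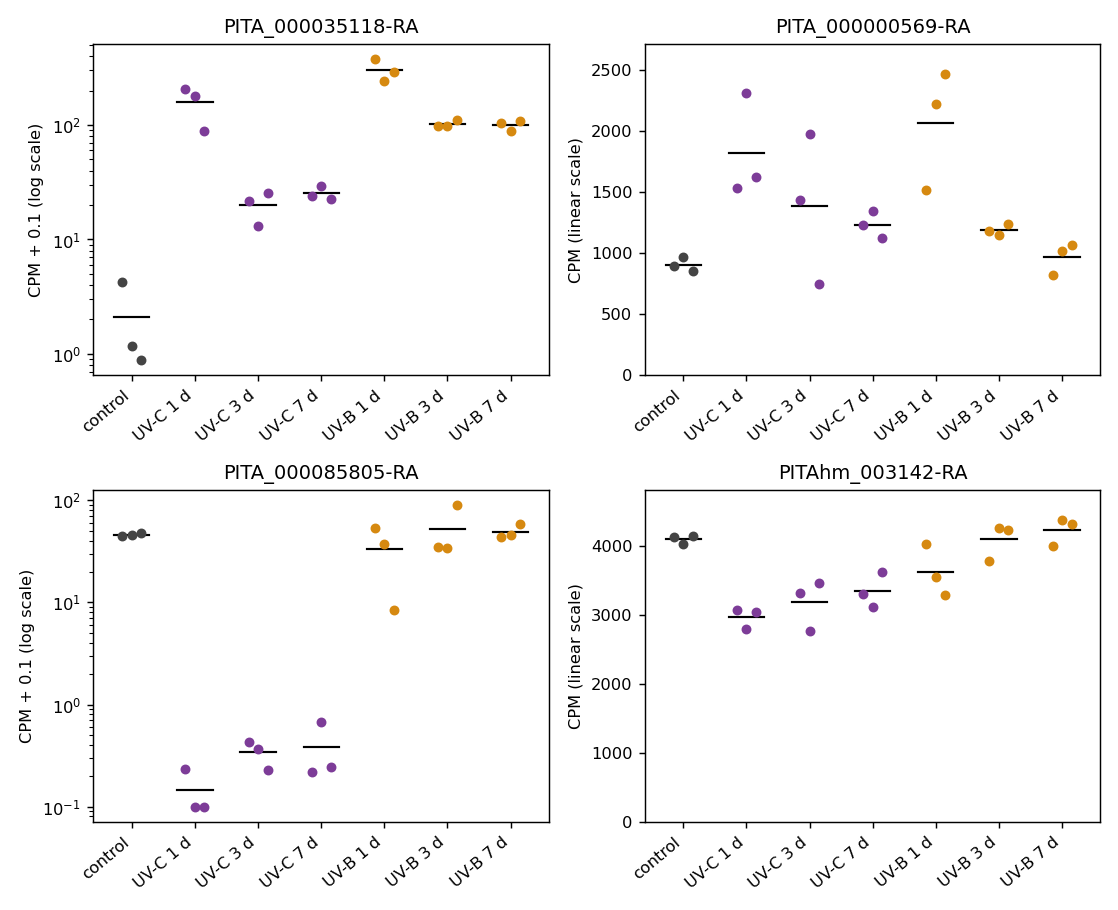
Level in CPM of the 4 followed gene models in each of the 21 libraries (points, with the group mean as a line). Both left panels have a log axis of CPM + 0.1 and both right panels a linear axis. PITA_000085805-RA lies at or below 0.576 CPM in all 9 UV-C libraries and between 8.31 and 89.4 CPM in the 12 others.

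How far UV-C at 1 d differed from UV-B at 1 d was tested directly, without the control. Their intensities differ, so this sets 2 treatments side by side and not equal doses. The UV-C 1 d libraries enter both the choice of risers and fallers and this contrast. That favours risers called higher and fallers called lower under UV-C. Against UV-B at 1 d, 79 of the 676 risers were higher under UV-C (11.7%) and 91 lower (13.5%), against 10.3% and 11.1% of all tested gene models. DESeq2 called 82 risers higher (12.1%, against 4.96% of gene models with at least 1 count) and 113 lower (16.7%, against 6.30%). Limma with group weights called 13.6% of the risers lower, against 7.46% of all gene models, and a fit of these 6 libraries 9.47%, against 5.84%. Of the 409 fallers, 62 were higher under UV-C (15.2%) and 79 lower (19.3%). For 161 of the 506 risers that were not called, the interval of the difference lay within 2-fold, and for the rest it was wider or lay further out. Fewer calls over all gene models went with fewer among the members when some libraries were left out. Risers lower under UV-C numbered 49 without UV-C 1 d replicate 1 (7.25%, against 5.27% of all), 47 without replicate 3 (6.95%, against 7.15%) and 49 without UV-B 1 d replicate 2 (7.25%, against 6.44%). Fallers lower numbered 51 without UV-C 1 d replicate 1 (12.5%, against 5.27%), and fallers higher 40 without UV-B 1 d replicate 2 (9.78%, against 5.91%). In the fit of 6 libraries 50 risers were higher (7.40%, against 5.31% of all), 31 fallers were higher (7.58%, against 5.31%) and 34 fallers were lower (8.31%, against 5.84%).

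The 79 risers that stood above UV-B as well held 0.504% ± 0.040 of counts at 1 d of UV-C and 0.267% ± 0.013 at 1 d of UV-B, and 0.263% ± 0.0043 in the control (SD, n = 3 each). The libraries of 3 and 7 d entered this choice only through the filter, scaling and estimate of spread that all 21 libraries share. At 3 and 7 d of UV-C the 79 risers held 0.392% ± 0.014 and 0.377% ± 0.0076, against 0.259% ± 0.010 and 0.286% ± 0.017 at 3 and 7 d of UV-B. Every UV-C library of 3 and 7 d lay above every UV-B library. The 79 fallers that stood below UV-B as well held 0.357% ± 0.028 at 1 d of UV-C and 0.604% ± 0.046 at 1 d of UV-B, and 0.547% ± 0.014 in the control. At 3 and 7 d their share was 0.447% ± 0.024 and 0.437% ± 0.022 in UV-C libraries and 0.661% ± 0.011 and 0.579% ± 0.030 in UV-B libraries, again with no overlap between the bands.

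The 91 risers that UV-C left below UV-B held 0.516% ± 0.093 of counts at 1 d of UV-C and 1.27% ± 0.23 at 1 d of UV-B, and 0.194% ± 0.0036 in the control. At 3 d they held 0.674% ± 0.23 under UV-C and 0.866% ± 0.19 under UV-B, where the libraries of the bands overlapped. At 7 d they held 0.362% ± 0.032 under UV-C and 0.636% ± 0.10 under UV-B, with no overlap. The 62 fallers that UV-C left above UV-B held 0.907% ± 0.041 at 1 d of UV-C and 0.484% ± 0.048 at 1 d of UV-B, and 1.40% ± 0.057 in the control. Their share at 3 d was 0.913% ± 0.17 under UV-C and 0.766% ± 0.033 under UV-B, with overlap, and at 7 d 1.08% ± 0.045 under UV-C and 0.827% ± 0.042 under UV-B, without overlap.

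PITA_000085805-RA was also lower under UV-C than under UV-B at 1 d (edgeR adjusted p = 1.67e-05). It had 1 count in all in the UV-C libraries of 1 d, against 357, 284 and 58 counts in the UV-B libraries of 1 d. The ratio of the levels was 0.00130, with an exact 95% counting interval between 3.28e-05 and 0.00725. It remained scarce later, with 5 counts over the 3 libraries of UV-C at 3 d and 6 at 7 d, whereas UV-B had 1204 and 1084. The other followed gene models were not called between the bands at 1 d. The log2 differences were -0.94 for PITA_000035118-RA (95% interval -1.64 to -0.24), -0.18 for PITA_000000569-RA (-0.72 to 0.35) and -0.29 for PITAhm_003142-RA (-0.52 to -0.05).

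Later UV-C libraries were also set directly against those of 1 d. The UV-C 1 d libraries enter both the choice of risers and fallers and these contrasts, which favours a return towards the control level. Between 3 and 1 d of UV-C, 6.24% of all tested gene models differed. At 3 d, 53 risers were lower than at 1 d (7.84%, against 1.77% of all tested gene models) and 16 were higher (2.37%, against 4.46%). Of the fallers, 36 were higher at 3 d (8.80%, against 4.46%) and 4 lower (0.978%, against 1.77%). These 3 d counts depended on the fit. DESeq2 called 73 risers lower (10.8%, against 1.59% of gene models with at least 1 count) and 58 fallers higher (14.2%, against 3.41%). Limma with group weights called 9 risers lower (1.33%, against 0.153% of all gene models) and 5 fallers higher (1.22%, against 0.318%), and a fit of these 6 libraries called 0 of each, with 1 call over all gene models. Leaving out UV-C 1 d replicate 1 gave 8 risers lower (1.18%, against 0.0953% of all) and 2 fallers higher (0.489%, against 0.127%). Leaving out UV-C 1 d replicate 2 gave 30 (4.44%, against 1.28%) and 23 (5.62%, against 2.82%), and leaving out replicate 3 gave 40 (5.92%, against 0.835%) and 20 (4.89%, against 1.65%). Without UV-C 3 d replicate 1 these numbers were 26 (3.85%, against 0.755%) and 21 (5.13%, against 2.02%), and without replicate 2 they were 6 (0.888%, against 0.101%) and 10 (2.44%, against 0.435%). UV-C 3 d replicate 3 correlated least with the other libraries of its group, at a mean of 0.902 over genes. Without it 70 risers were lower (10.4%, against 5.45% of all), 38 fallers were higher (9.29%, against 7.94%) and 58 risers were higher (8.58%, against 7.94%).

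Between 7 and 1 d of UV-C, 8.14% of all tested gene models differed. Lower than at 1 d were 133 risers (19.7%, against 4.56% of all tested gene models) and higher was 1 (0.148%, against 3.59%). Higher than at 1 d were 78 fallers (19.1%, against 3.59%) and lower were 5 (1.22%, against 4.56%). DESeq2 called 187 risers lower (27.7%, against 2.95% of gene models with at least 1 count) and 108 fallers higher (26.4%, against 2.62%). Limma with group weights called 142 risers lower (21.01%, against 5.02% of all) and 92 fallers higher (22.5%, against 4.41%), and a fit of these 6 libraries 109 (16.1%, against 3.62%) and 52 (12.7%, against 2.38%). Leaving out UV-C 1 d replicate 1 gave 57 risers lower (8.43%, against 1.22% of all) and 24 fallers higher (5.87%, against 0.498%). Leaving out UV-C 1 d replicate 2 gave 79 (11.7%, against 2.58%) and 43 (10.5%, against 2.16%), and leaving out replicate 3 gave 180 (26.6%, against 5.05%) and 80 (19.6%, against 3.52%). Without UV-C 7 d replicate 1 these numbers were 64 (9.47%, against 1.47%) and 41 (10.0%, against 1.19%), without replicate 2 they were 72 (10.7%, against 2.09%) and 51 (12.5%, against 1.88%), and without replicate 3 they were 63 (9.32%, against 1.91%) and 33 (8.07%, against 1.70%). From a control share of 0.349% ± 0.0056, these 133 risers stood at 0.951% ± 0.16 after 1 d of UV-C, 0.637% ± 0.093 after 3 d and 0.373% ± 0.022 after 7 d. The 78 fallers had a control share of 1.15% ± 0.068 and stood at 0.719% ± 0.035 after 1 d, 0.957% ± 0.089 after 3 d and 1.17% ± 0.080 after 7 d. UV-B libraries entered the choice of both sets only through the shared filter, scaling and estimate of spread. At 1, 3 and 7 d of UV-B the 133 risers held 1.16% ± 0.12, 0.644% ± 0.054 and 0.515% ± 0.059, and the 78 fallers 0.696% ± 0.094, 1.03% ± 0.0055 and 0.991% ± 0.041.

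**Figure D5:**
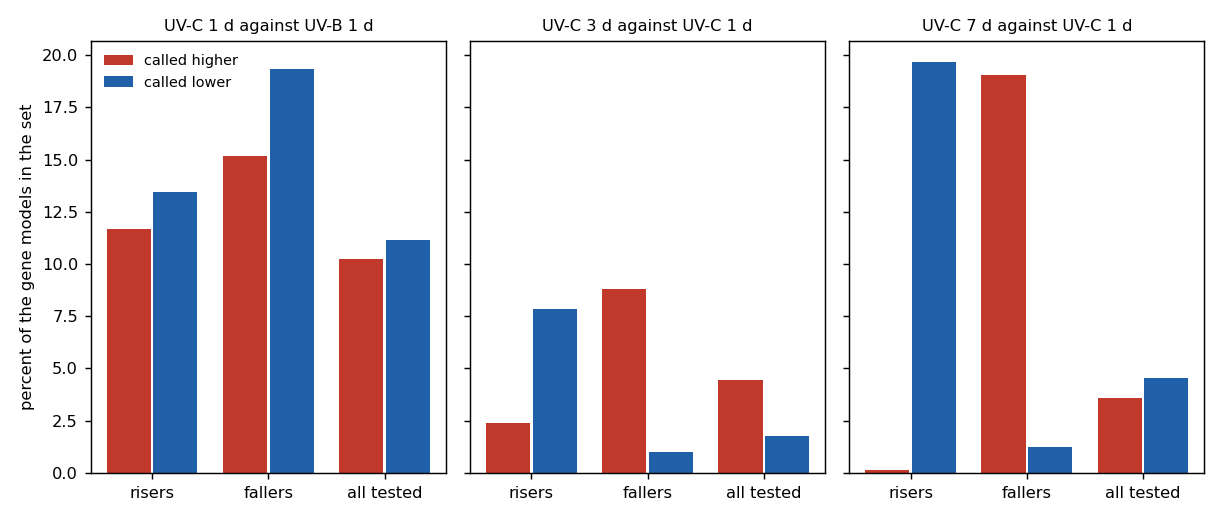
Percent of the 676 risers, the 409 fallers and all 18265 tested gene models called higher (red) or lower (blue) in 3 direct contrasts, edgeR adjusted p under 0.05. Against UV-B at 1 d 13.5% of the risers and 11.1% of all gene models are lower under UV-C, and at 7 d of UV-C 19.7% of the risers are lower and 19.1% of the fallers higher than at 1 d.

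PITA_000035118-RA was among the risers called lower at 3 d than at 1 d of UV-C in the fit of all 21 libraries. It had 158.5 ± 62 CPM at 1 d of UV-C, 20.1 ± 6.4 CPM at 3 d and 25.2 ± 3.5 CPM at 7 d (SD, n = 3 each), all above the control mean of 1.99 ± 1.8 CPM. The log2 fold change was -2.98 ± 0.37 at 3 d over 1 d (edgeR adjusted p = 0.0022) and -2.65 ± 0.36 at 7 d over 1 d (adjusted p = 0.0010). A fit of the 6 libraries of 3 and 1 d called 0 gene models lower at 3 d, so PITA_000035118-RA was not called there. Under UV-B it had 304.0 ± 68, 102.1 ± 6.5 and 100.7 ± 10 CPM at 1, 3 and 7 d. Neither PITA_000000569-RA nor PITAhm_003142-RA was called between 1 d and 3 or 7 d of UV-C. For PITA_000000569-RA the 95% interval of the log2 difference was -0.93 to 0.14 at 3 d and -1.10 to -0.03 at 7 d, which does not bound the fall at 7 d within 2-fold. For PITAhm_003142-RA the interval of the log2 difference was -0.13 to 0.33 at 3 d and -0.06 to 0.41 at 7 d.

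Of the risers, 382 of 676 (56.5%) were called neither against UV-B at 1 d nor between 1 d and 3 or 7 d of UV-C, and so were 218 of 409 fallers (53.3%), against 70.5% of all tested gene models. No riser was called further up at both 3 and 7 d, and no faller further down at both. Such calls at 7 d alone numbered 1 and 5, so no more than these could meet both conditions. Choosing members on the 1 d libraries works against such calls, and the share over all tested gene models was not counted. On the log2 scale of CPM + 0.5, the median riser stood 1.59, 1.33 and 0.77 above the control mean at 1, 3 and 7 d of UV-C, and 1.58, 1.15 and 0.86 at 1, 3 and 7 d of UV-B. The median faller stood at -0.84, -0.71 and -0.53 under UV-C and at -0.75, -0.57 and -0.47 under UV-B. All these values share the 3 control libraries, and the median of all tested gene models was between 0.01 and 0.03 in each group.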

How the data were processed

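Poly(A) RNA libraries were sequenced as pairs of 150 bp reads and trimmed with Trimmomatic 0.36, per the labels' protocols. Per the submitters' processing notes, featureCounts 1.5.3 did the counting. The aligner, the reference, the use of strand and the handling of multiply mapped reads were not given in the sources used here. Raw counts, as the authors deposited them, cover 84525 gene models in 21 libraries, 45122 of them at 0 throughout. Totals were between 6177212 and 8560163 counts, so 1 CPM is 6.18 to 8.56 counts.

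The counts were fitted with edgeR 4.0.16 (R 4.3.3), all 21 libraries with 1 mean per group (14 residual degrees of freedom), TMM scaling and the filterByExpr filter by group, and tested two-sided with Benjamini-Hochberg adjustment over 18265 gene models. Each standard error is the size of the log2 fold change over the root of its F statistic. CPM use TMM-scaled library sizes. Alternatives were DESeq2 1.42.0, limma 3.58.1 and other scalings, filters and thresholds, and leaving out libraries. Replicates of UV-C at 1 d and of the control differed by more than sampling noise in every pair (lowest chi-square over its degrees of freedom 3.82).

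Gene models to follow had to be called, with a mean of at least 10 CPM in the 6 libraries and groups that do not overlap. The steepest, and the one with the largest CPM difference, were taken in each direction. Groups, rules and lists were chosen with earlier results of these data known. Gene lists by symbol could not be matched to identifiers.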

Additional observations from a re-analysis of the deposited data

Results flagged for a closer look

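Levels at 1 d of UV-C differed from those under other treatments in direct tests of the difference (edgeR, adjusted p under 0.05). UV-C and UV-B at 1 d differed in 3910 gene models. UV-C at 3 d differed from UV-C at 1 d in 1139 gene models, and UV-C at 7 d from UV-C at 1 d in 1487. The 3 d number depended strongly on the fit, as given below. PITA_000085805-RA was lower at 1 d of UV-C than at 1 d of UV-B, with a fitted log2 fold change of -9.11, which depends on the prior count because the UV-C libraries hold 1 count. PITA_000035118-RA was lower at 3 d than at 1 d of UV-C, with a log2 fold change of -2.98, and lower at 7 d than at 1 d, with -2.65. Its 3 d call was absent from a fit of the 6 libraries of 3 and 1 d, which called 0 gene models lower. Groups of 3 libraries are too small for a test of single outlying libraries.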

How the results depend on the processing

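The 1085 calls of UV-C at 1 d against the control, the 3910 against UV-B at 1 d, the 1139 between 3 and 1 d of UV-C and the 1487 between 7 and 1 d became, in this order, 703, 1778, 635 and 578 where the log2 fold change had to reach 1, and 150, 1654, 84 and 346 at an adjusted p under 0.01. DESeq2 gave 1929 against the control and 1971 between 3 and 1 d, and limma with group weights gave 1873 and 86. Fits of the 6 libraries compared gave 1797 against UV-B, 1 between 3 and 1 d and 950 between 7 and 1 d. For these fits the cause was not tested. Leaving out 1 library gave 220 to 1520, 2224 to 3538, 42 to 2534 and 325 to 1622 calls, 7334 to 9279 gene models without overlap (5827 with all libraries) and 8223 to 8599 bounded within 2-fold. With 2 libraries in a group there is less power, and separation is easier to reach. With upper quartile scaling 2095 gene models were higher and 1748 lower against UV-B at 1 d, in place of 1874 and 2036. With the replicate block the counts were 1025, 3768, 1023 and 1383. Same-numbered libraries of UV-C at 1 d and the control did not deviate together (correlations over genes of -0.03, -0.11 and -0.12), so the numbers were not taken as pairs. Depth limits gene models under 10 CPM most. The counts of risers and fallers in the direct contrasts under other fits were an alternative chosen after seeing the data.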

Other observations

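The table holds identifiers of 3 forms. Of 16363 tested gene models whose identifiers begin with PITA_, 627 were higher at 1 d of UV-C than in the control (3.83%) and 350 lower (2.14%). Of 1413 that begin with PITAhm_, 40 were higher (2.83%) and 50 lower (3.54%). Of 489 with identifiers of assembled transcripts, 9 were higher and 9 lower.

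Among the 35 fallers of 8-fold or more, 10 were also called lower than at 1 d of UV-B and 0 higher, and among the 161 risers of 8-fold or more 15 were called lower and 12 higher. Over all tested gene models 11.1% were lower and 10.3% higher. The UV-C 1 d libraries chose these sets and enter this contrast, which favours fallers called lower and risers called higher. For 5 of the 35 each UV-C group held at most 3 counts, and for 4 of these 5 each UV-B group did too.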
